A study of Andropogon gerardi with 36 samples.

Results

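The probes described here belong to genes that carry only a locus number as a name, and they gave values mainly on August arrays. They are 138 probes of 100 genes, out of 1412 probes of 539 locus-numbered genes, on an array of 19200 probes and 583 gene symbols. A probe was chosen by its number of values: its single symbol began with LOC and it had a value on at least 7 of 11 Aug arrays and at most 3 of 11 June arrays. Genes with any probe measured on 28 or more of 34 arrays were left out, which removed 59 further probes with the same Aug and June counts. The probes were thus selected on their Aug and June counts, which are given below as a description with no test.

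Big bluestem (Andropogon gerardi) is a perennial grass of the tallgrass prairie that fixes carbon by the C4 pathway and flowers in late summer. It was hybridised to spotted probes designed for maize, another C4 grass of the same tribe, so a probe gives signal where the bluestem transcript is both present and similar enough to the maize sequence. A symbol made of LOC and a number is the placeholder given to a gene that has no approved symbol, and it says nothing of the protein. The platform's annotation gave these genes no description, and 0 of the 138 probes matched any of the name lists for photosynthesis, stress, cell wall, hormones, seed, pollen and flower, root and other processes. No roles are given below for that reason, and the genes are ordered by when and how they were measured.

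The plants stood in 12 plots under rainout shelters at the Konza Prairie, in an experiment on soil moisture and warming. Each array set RNA of 1 plot, labelled with Cy5, against RNA of its partner plot, labelled with Cy3, with subplot 1 against subplot 1, or subplots 2 and 4 in either combination (2 against 4, 2 against 2 or 4 against 4). There were 11 June, 6 JulyA, 6 JulyB and 11 Aug arrays of this kind, where JulyA and JulyB are the labels' names. All groups shared the shelters, and the labels do not say which plots or subplots were warmed or had altered moisture. The tissue, the age of the plants, the July dates and the meaning of the letter that ends each plant code are likewise unstated in the labels. The annotation gave no gene descriptions, so the tissue could not be checked against its markers. A deposited value is the log10 ratio of the partner plots' signals at a spot, and a probe with no entry on an array is said to have no value there. The labels do not say why an entry was left empty. In bulk RNA, fewer cells of a type and less RNA per cell cannot be told apart.

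The arrays differed widely in how many probes had a value, from 2199 on a June array to 9530 on an Aug array, and precision is limited by how many arrays there were. All 19200 probes had values on 22.1% ± 9.18 of spots on June arrays, 22.4% ± 3.48 on JulyA, 26.8% ± 7.15 on JulyB and 39.9% ± 6.55 on Aug arrays (SD, n = 11, 6, 6 and 11 arrays). The same counts in Aug and June were met by 2216 probes, or 11.5% of the array, and the locus-numbered probes were 197 of them. The opposite kind, with 7 or more June arrays and 3 or fewer Aug arrays, had 9 probes over the whole array. It had 1 among the 892 locus-numbered probes of genes with no probe on 28 or more arrays.

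The 138 August-detected probes had values on 14.9% ± 12.9 of their spots on June arrays, 23.9% ± 4.85 on JulyA, 43.1% ± 20.6 on JulyB and 73.9% ± 14.9 on Aug arrays (SD, same n). The June shares ran from 2.17% through a median of 11.6% to 44.9%, and the Aug shares from 40.6% through 79.0% to 89.9%. These ranges overlapped through a single pair of plots: plots 7 and 10, subplot 1, had the highest June share and the lowest Aug share. The 1274 other locus-numbered probes had values on 33.8% ± 11.1 of spots on June arrays, 35.3% ± 4.08 on JulyA, 40.1% ± 8.63 on JulyB and 50.9% ± 6.63 on Aug arrays. The July arrays entered the choice only through the limit of 28 of 34 arrays. With the genes kept that this limit left out, 197 locus-numbered probes had values on 28.7% ± 5.24 of spots on JulyA and 48.3% ± 22.2 on JulyB arrays (SD). All 2216 probes with the same Aug and June counts, whatever their name, had values on 24.7% of spots in JulyA and 42.3% in JulyB, close to the shares of the August-detected locus-numbered probes.

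**Figure D1:**
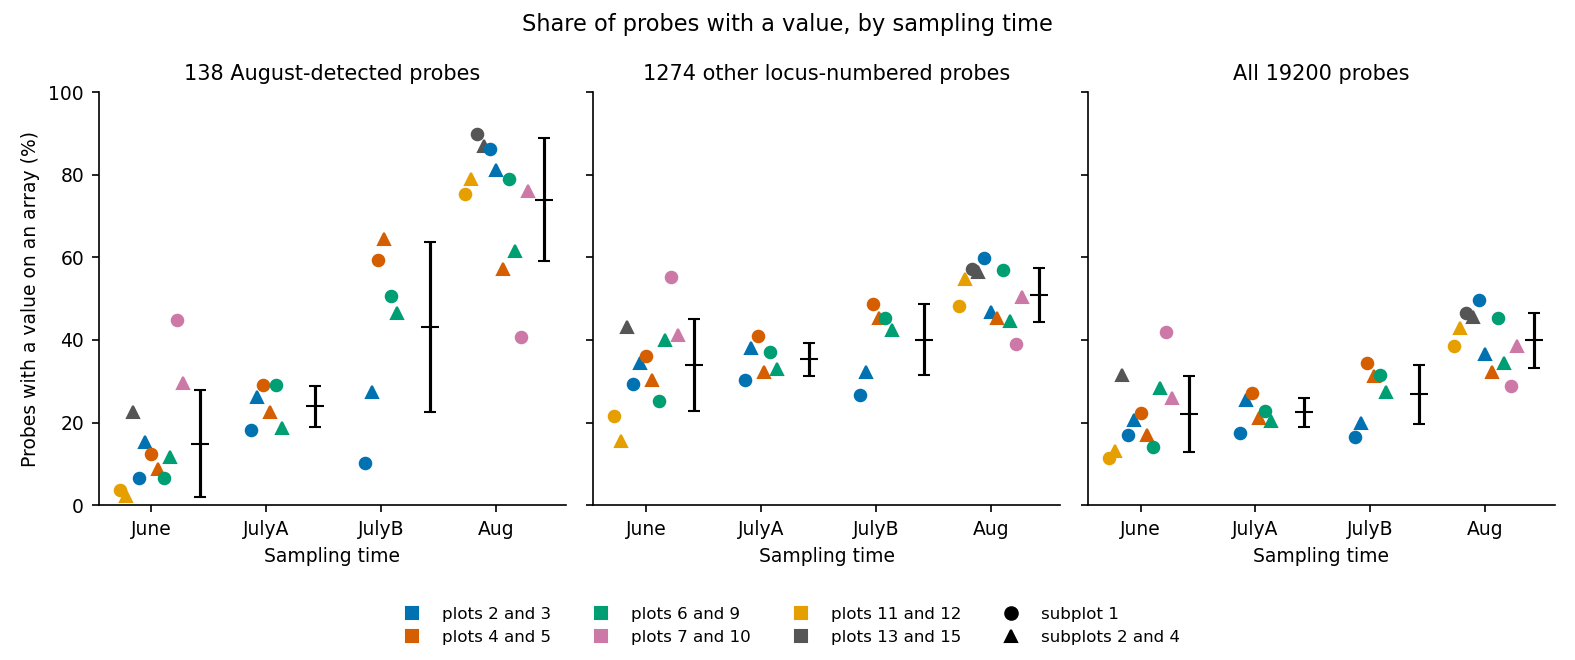
Percent of probes with a value on each of 34 arrays (y axis) by sampling time (x axis), for the 138 August-detected probes, the 1274 other locus-numbered probes and all 19200 probes. Points are arrays, coloured by plot pair and shaped by subplot, and bars are the mean ± SD. The August-detected probes averaged 14.9%, 23.9%, 43.1% and 73.9% from June to Aug, with the JulyB arrays of plots 2 and 3 below the other 4 JulyB arrays.

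Where the same plots and subplots were sampled in Aug and June, 9 of 10 combinations had more of the 138 probes in Aug. Plots 11 and 12 had 75.4% and 79.0% in Aug, against 3.62% and 2.17% in June. Plots 13 and 15, subplots 2 and 4, had 87.0% in Aug and 22.5% in June. Plots 7 and 10, subplot 1, were the exception, with 40.6% in Aug and 44.9% in June, and that Aug array also had fewer values of any kind than its June partner, 5558 against 8038. Without the arrays of plots 7 and 10, an alternative chosen after seeing the data, the means were 77.4% ± 11.2 in Aug and 9.90% ± 6.31 in June (SD).

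Some plant codes recur from month to month. The plants coded 61a and 91c were set against each other at all 4 times, and 6.52% of the 138 probes had a value on the June array, 29% on JulyA, 50.7% on JulyB and 79.0% on the Aug array. The number of values of any kind on those arrays also went up, with 2700, 4392, 6041 and 8697. For 64b and 94a the shares were 11.6% in June, 18.8% in JulyA and 61.6% in Aug. For 42d and 54c they were 22.5% in JulyA, 64.5% in JulyB and 57.2% in Aug, so there the JulyB array had more of these probes than the Aug array. Other recurring codes went the opposite way: 71a and 101c had 40.6% in Aug and 44.9% in June, and 21c and 31c had 10.1% in JulyB and 18.1% in JulyA. For 24b and 32d the shares were 81.2% in Aug and 26.1% in JulyA.

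Arrays with nearly the same number of values of any kind were also set side by side. The June array of plots 13 and 15 had 6039 values and held 22.5% of the 138 probes. The JulyB array of plots 4 and 5, subplots 2 and 4, had 6019 values and held 64.5%, and the Aug array of the same plots and subplots had 6203 values and held 57.2%. Among the other locus-numbered probes these 3 arrays held 43.2%, 45.2% and 45.4%. Across all arrays, the June arrays lay at or below the share of all probes on the same array, apart from the 2 arrays of plots 7 and 10. Every Aug array lay above it. The probes were chosen for few June and many Aug values, so low June and high Aug shares follow from the choice. These values therefore do not separate sampling time from the number of values on an array, whose part was not tested.

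**Figure D2:**
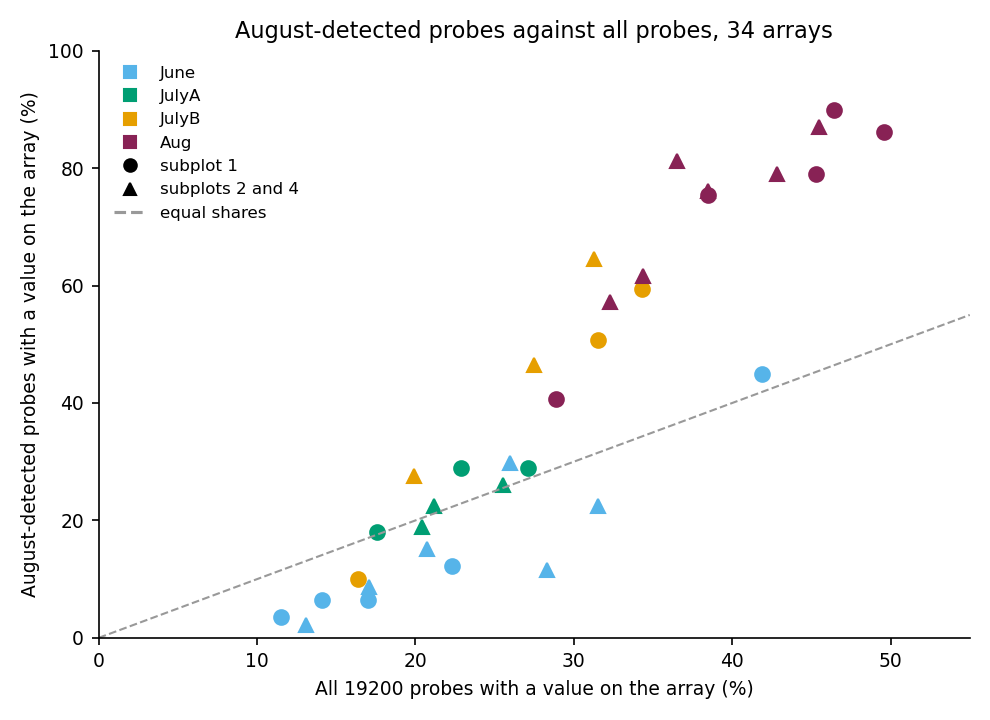
Percent of the 138 August-detected probes with a value (y axis) against the percent of all 19200 probes with a value (x axis), 1 point for each of 34 arrays, coloured by sampling time and shaped by subplot, with the line of equal shares. At about 31% of all probes the June array of plots 13 and 15 held 22.5% of the August-detected probes, the JulyB array of plots 4 and 5 (subplots 2 and 4) 64.5%. The probes were chosen on their June and Aug counts.

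The next comparison was whether the August-detected probes had values more often in JulyB than in JulyA. The counts of Aug and June arrays did not use these arrays, but the limit of 28 of 34 arrays counted them, so they are not wholly independent of the choice. In the matched plots and subplots, JulyB held 10.1% and JulyA 18.1% of the 138 probes for plots 2 and 3, subplot 1, and 27.5% in JulyB against 26.1% in JulyA for subplots 2 and 4. Plots 4 and 5 had 59.4% and 64.5% in JulyB, against 29% and 22.5% in JulyA. Plots 6 and 9 had 50.7% and 46.4% in JulyB, against 29% and 18.8% in JulyA. Thus the 4 JulyB arrays of plots 4, 5, 6 and 9 stood above every JulyA array, and the 2 JulyB arrays of plots 2 and 3 lay within or below the JulyA range. The difference, JulyB minus JulyA, ran from -7.97 to 42.0 percentage points with a median of 24.6, and the median for all probes was 7.14.

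Probe by probe, 88 of the 138 had values on more JulyB than JulyA arrays, 34 on equally many and 16 on fewer. Of the 128 with any July value, 68.8% had more JulyB arrays and 12.5% fewer. Over all 12102 probes with a July value, these shares were 49.9% and 28.9%. Among probes with values on 3 to 9 of the July arrays they were 73.6% and 11.5% of 87 August-detected probes, beside 57.8% and 27.1% of all 5210. Of the 2216 probes with the same Aug and June counts, 63.4% had more JulyB arrays and 13.9% fewer. That was close to the 63.8% and 11.6% of the 138, so the July difference was not particular to the locus-numbered probes. By gene, 60 of the 100 genes had values on more JulyB arrays and 11 on fewer. Fisher's exact test, two-sided and Benjamini-Hochberg adjusted over all 12102 probes, called 0 probes (0%), and 0 of the 138 had an unadjusted p under 0.05. Among all probes, 41 (0.339%) were higher in JulyB and 6 (0.0496%) higher in JulyA at an unadjusted p under 0.05, and the smallest p that 6 against 6 arrays allow is 0.00216. Without plots 2 and 3, 8 of 126 August-detected probes tested had an unadjusted p under 0.05 (6.35%), all higher in JulyB. Beside them stood 155 of 11281 of all probes (1.37%). In that comparison 95 of the 126 had more JulyB arrays (75.4%) and 10 fewer (7.94%), beside 55.3% and 22.4% of all probes. Its smallest possible p, 0.0286, could pass the adjustment only if most probes reached it, and 0 were called. Leaving out either of the other pairs gave 0 August-detected probes at an unadjusted p under 0.05, as with all pairs kept. The direction stayed the same. Without plots 4 and 5, 57.8% of 116 had more JulyB arrays and 20.7% fewer, beside 41.9% and 31.6% of all probes. Without plots 6 and 9, 61.7% of 120 had more and 18.3% fewer, beside 43.3% and 31.5%. The number of values of any kind also differed between these arrays, 3144 to 6586 in JulyB and 3370 to 5200 in JulyA, and its part in the difference was not tested.

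**Figure D3:**
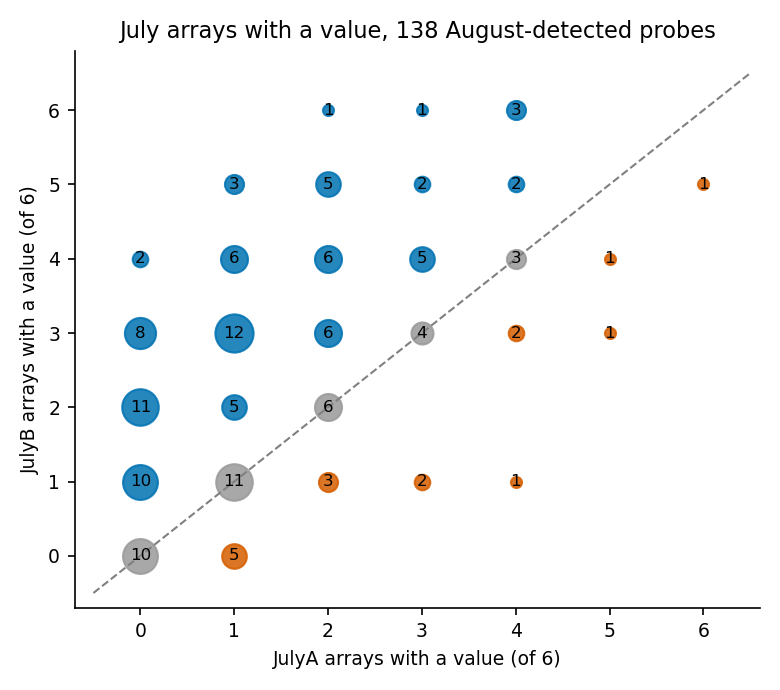
Number of JulyB arrays with a value (y axis, of 6) against the number of JulyA arrays (x axis, of 6) for the 138 August-detected probes, with the number of probes written at each point and point area growing with it. The 88 probes above the dashed line had more JulyB arrays, the 34 on it equally many and the 16 below it fewer.

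The 6 probes furthest to the JulyB side each had 4 more JulyB than JulyA arrays. Probe 2167 of LOC542529 had values on 6 JulyB and 2 JulyA arrays, and probe 5666 of LOC542356, probe 2871 of LOC541999 and probe 8521 of LOC542610 each on 5 JulyB and 1 JulyA array. Probe 7276 of LOC542041 and probe 16410 of LOC542124 had 4 JulyB and 0 JulyA arrays. On the opposite side, probe 2149 of LOC541795 had values on 1 JulyB and 4 JulyA arrays, beside 10 Aug and 3 June arrays. None of these single differences passed the test (adjusted p = 1.0, Fisher's exact test), and the smallest unadjusted p among the 138 was 0.0606. For LOC542529 the second probe, 11321, had 3 JulyB and 4 JulyA arrays, so its 2 probes did not share the July pattern.

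Of the 138 probes, 3 had values on all 11 Aug arrays. Probe 5355 of LOC100101544 had values on 2 June, 2 JulyA, 4 JulyB and 11 Aug arrays, and probe 2883 of LOC542017 on 1, 1, 4 and 11. Probe 3663 of LOC542194 had values on 3, 4, 6 and 11, the most arrays of any August-detected probe. At the other end, 26 probes had no value on any of the 11 compared June arrays, although 25 of them had a value on a further June array, labelled with a single plant code for both dyes, which entered no comparison. Probe 515 of LOC542365 had values on 10 Aug arrays and on no other of the 34 compared arrays, and probe 16410 of LOC542124 on 10 Aug and 4 JulyB arrays and no others of the 34. Altogether 10 of the 138 probes had no value on any July array, and 41 had none in JulyA. A missing value is not a measured absence.

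LOC542365 and LOC542017 also show how the ratios of such probes ran. Probe 515 of LOC542365 had Aug log2 ratios from -0.74 through a median of -0.12 to 0.90, with 4 above and 6 below 0. Probe 2883 of LOC542017 ran from -0.79 through 0.03 to 0.75, with 6 above and 5 below 0. Both probes had values on either side of 0. Probe 5355 of LOC100101544 ran from -0.54 through 0.44 to 1.58 and was above 0 on 7 of 11 arrays. These are log2 ratios with the lower-numbered plot first, if the deposited ratio is Cy5 over Cy3. The labels do not state the direction of the ratio, so the sign does not say which plot was higher. On 2 of the 11 Aug arrays the lower-numbered plot was in Cy3, and their sign was turned.

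The limits of the choice cut through a range of probes with no gap at them. Of the 138, 44 lay at the limit of 7 Aug arrays, 38 at the limit of 3 June arrays and 11 at both. Just outside lay 39 probes with 6 Aug and at most 3 June arrays and 33 with 4 June and at least 7 Aug arrays, from genes that were otherwise eligible. By blocks of 1920 consecutive probe numbers, the August-detected probes were 5.68% to 16.3% of the locus-numbered ones. A gap of 8 or more between Aug and June arrays was reached by 36 of the 138.

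The ratios compare the partner plots for these genes in Aug, a quantity the choice did not use. Over 1122 Aug values of the 138 probes, the median size of the log2 ratio was 0.40 and 11.9% lay beyond 2-fold, against 0.36 and 9.62% of 84208 values of all probes. The mean log2 ratio of a probe over its Aug arrays ran from -0.83 to 0.46, above 0 for 72 probes and below for 66, and before any sign was turned the range was -1.25 to 0.40. The SD over those arrays had a median of 0.60 and ran from 0.22 to 1.57, which for most probes was wider than the distance of the mean from 0. Of all 138, 2 probes had Aug values of a single sign: probe 2915 of LOC541976, from -1.0 to -0.10 on 7 arrays, and probe 11321 of LOC542529, from 0.04 to 0.61 on 7 arrays. With the ratios as deposited, each of these had values of both signs.

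**Figure D4:**
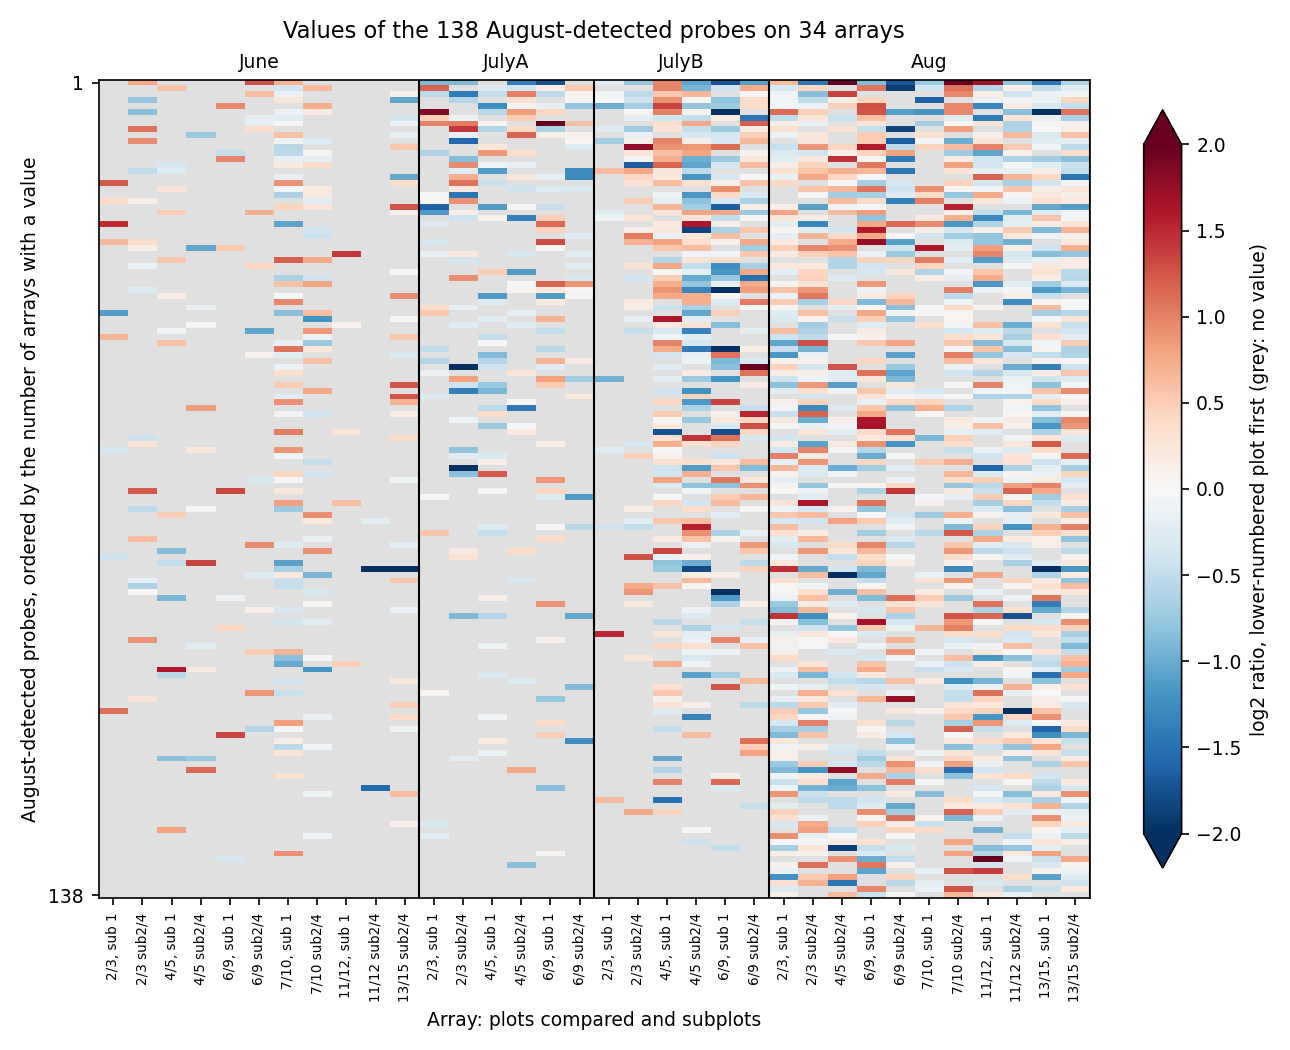
log2 ratio (colour, lower-numbered plot first) of the 138 August-detected probes (rows, ordered by the number of arrays with a value) on 34 arrays (columns, by sampling time, then plots and subplots), with grey where there was no value. The June and JulyA columns are mostly grey and the Aug columns mostly filled, and both colours occur within most rows.

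A linear model with a coefficient for each plot pair was fitted with limma to the Aug ratios of 6550 probes, 131 of them August-detected locus-numbered probes. The F test over the pairs called 0 of 6550 probes at an adjusted p under 0.05 (0%). At an unadjusted p under 0.05 it passed 211 probes (3.22%) and 7 of the 131 (5.34%). By pair, 3 of 127 August-detected probes had an unadjusted p under 0.05 for plots 2 and 3 (1.74% of all probes), 6 of 72 for the pair 4 and 5 (5.61%), 8 of 124 for 6 and 9 (5.76%), 4 of 115 for 7 and 10 (3.38%), 5 of 126 for 11 and 12 (3.17%) and 7 of 129 for 13 and 15 (4.8%). None was called after adjustment in any pair, and the 2 of 4995 probes called in all (0.0400%), for plots 4 and 5, were no August-detected locus-numbered probes and rested on a single array. With the ratios as deposited the F test passed 12 of the 131 at an unadjusted p (9.16%, against 8.02% of all probes), again with 0 calls.

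The smallest F-test p among the 131 belonged to probe 8401 of LOC542739 (limma, p = 0.0168, adjusted p = 1.0). Its Aug log2 ratios were -0.67 and 0.24 on the arrays of plots 2 and 3, -1.86 on that of plots 4 and 5, -0.48 and -0.31 on those of plots 6 and 9, -0.86 and -0.77 on those of plots 11 and 12 and -0.20 on that of plots 13 and 15. All but 1 of these 8 values were negative, and the single array of plots 4 and 5 was the furthest from 0. Its coefficient for plots 2 and 3 was -0.22 ± 0.35 (SE) and, with the ratios as deposited, 0.46 ± 0.29. The second probe of that gene, 10332, had Aug ratios from -0.58 to 0.81. Probe 11764 of LOC542239 came next (limma, p = 0.0221, adjusted p = 1.0), at 0.59 and 0.86 on the arrays of plots 2 and 3, 1.0 on that of plots 7 and 10 and -1.13 and -0.93 on those of plots 13 and 15. Its 2 arrays of plots 2 and 3 lay above 0 and its 2 arrays of plots 13 and 15 below it, and no pair passed the adjustment. With the ratios as deposited, 1 of its arrays of plots 2 and 3 changed sign, and the coefficient for that pair was 0.13 ± 0.36, against 0.73 ± 0.32 (SE) with the lower-numbered plot first.

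The probe with the mean furthest from 0 was 19114 of LOC100037812, at -0.83 ± 1.22 (SD, n = 7 arrays), from -2.58 to 1.48. Next stood probe 8401 of LOC542739 at -0.61 ± 0.61 (n = 8), probe 2915 of LOC541976 at -0.59 ± 0.34 (n = 7) and probe 10106 of LOC542459 at -0.52 ± 0.62 (n = 9). These 4 lay beyond 0.5 in size with the lower-numbered plot first, and the list depended on the direction of the ratios. With the ratios as deposited, the means were -1.25 for probe 19114, -0.66 for 10106, -0.56 for 2915 and -0.52 for probe 1656 of LOC541965, and probe 8401 was at -0.44. Probe 8352 of LOC606415, the highest at 0.46 ± 0.68 (n = 10), was at 0.04 as deposited, where probe 969 of LOC542636 was the highest at 0.40.

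Several genes had more than 1 August-detected probe, and their probes are repeat measures of a gene and not replicates of a condition. There were 27 such genes, 19 with 2 probes, 6 with 3, LOC542194 with 4 and LOC542421 with 5, and 73 genes had a single probe. The 100 genes had 159 other probes, which had values on a median of 7 arrays, and 12 of them had none. Of the 159, 45 had values on 7 or more Aug arrays and 103 on 3 or fewer June arrays, and by the choice none met both limits. They averaged 2.46 June and 4.47 Aug arrays, near the 2.43 and 4.39 of all probes. The August pattern thus describes the chosen probes and not every probe of their genes. For 41 genes there was no other probe. On Aug arrays, same-gene probes had ratios of the same sign in 234 of 355 pairs of values (65.9%), and probes of different genes in 29136 of 57710 (50.5%). These pairs share arrays and are given as a description.

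Among the genes with 2 August-detected probes, some shared the calendar of their values. Both probes of LOC542172 had no June value, with 2 and 4 JulyA, 3 and 5 JulyB and 8 and 9 Aug arrays. Both probes of LOC541617 had no JulyA value, with 2 and 2 June, 2 and 2 JulyB and 7 and 8 Aug arrays. LOC541806 and LOC606471 likewise had no JulyA value with either probe, and LOC541951 had none in either July sampling, with 8 and 7 Aug arrays and 2 and 1 June arrays. Agreement in sign went from 1 of 5 pairs of values for LOC542009 to 6 of 6 for LOC606471, with so few pairs per gene that the order of these genes is not read.

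The 5 probes of LOC542421 had ratios of like sign on most arrays. On the Aug array of plots 6 and 9, subplot 1, they had log2 ratios of 1.07, 1.27, 0.87, 0.66 and 1.06, and on that of plots 11 and 12, subplot 1, -0.59, -1.30, -1.16, -0.53 and -0.37. Their Aug signs matched in 55 of 69 pairs of values (79.7%). In JulyB they were at 0.72 to 1.35 on the array of plots 4 and 5, subplot 1, all above 0, and the 4 that were measured in subplots 2 and 4 were at -1.05 to -0.78. The shared sign thus turned between the subplots of the same plots. Of the 5 probes, 4 were fitted in Aug, and none of them passed the adjusted F test. Probe 10155 of LOC542421, with 7 Aug values, had fewer than 2 residual degrees of freedom and was not tested.

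The 3 probes of LOC541999 also lay close together, with the same sign in 21 of 27 pairs (77.8%). For plots 6 and 9, subplot 1, they had log2 ratios of 1.58, 1.63 and 1.65. For plots 13 and 15 they were at -0.88, -0.87 and -1.17 in subplot 1 and at 0.68, 0.96 and 0.88 in subplots 2 and 4. Here too the sign was shared between probes and differed between the subplot arrays of a pair. LOC541811 had the same sign in 15 of 17 pairs (88.2%).

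The probes of LOC542194 had the same sign in 24 of 47 pairs (51.1%), and those of LOC542636, another gene with 3 probes, in 9 of 18. Its probe 3663 had the widest spread of the 138, from -1.70 through -0.74 to 2.52 (SD 1.57, n = 11 Aug arrays). On the array of plots 7 and 10, subplots 2 and 4, it was at 2.52 where the probes 5345, 10967 and 18229 were at -0.22, 0.27 and 0.08. On the array of plots 4 and 5 it was at 2.40 where probes 5345 and 10967 were at -0.59 and 0.71. LOC100037812 had the same sign in 10 of 16 pairs (62.5%), near the 65.9% of all same-gene pairs.

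**Figure D5:**
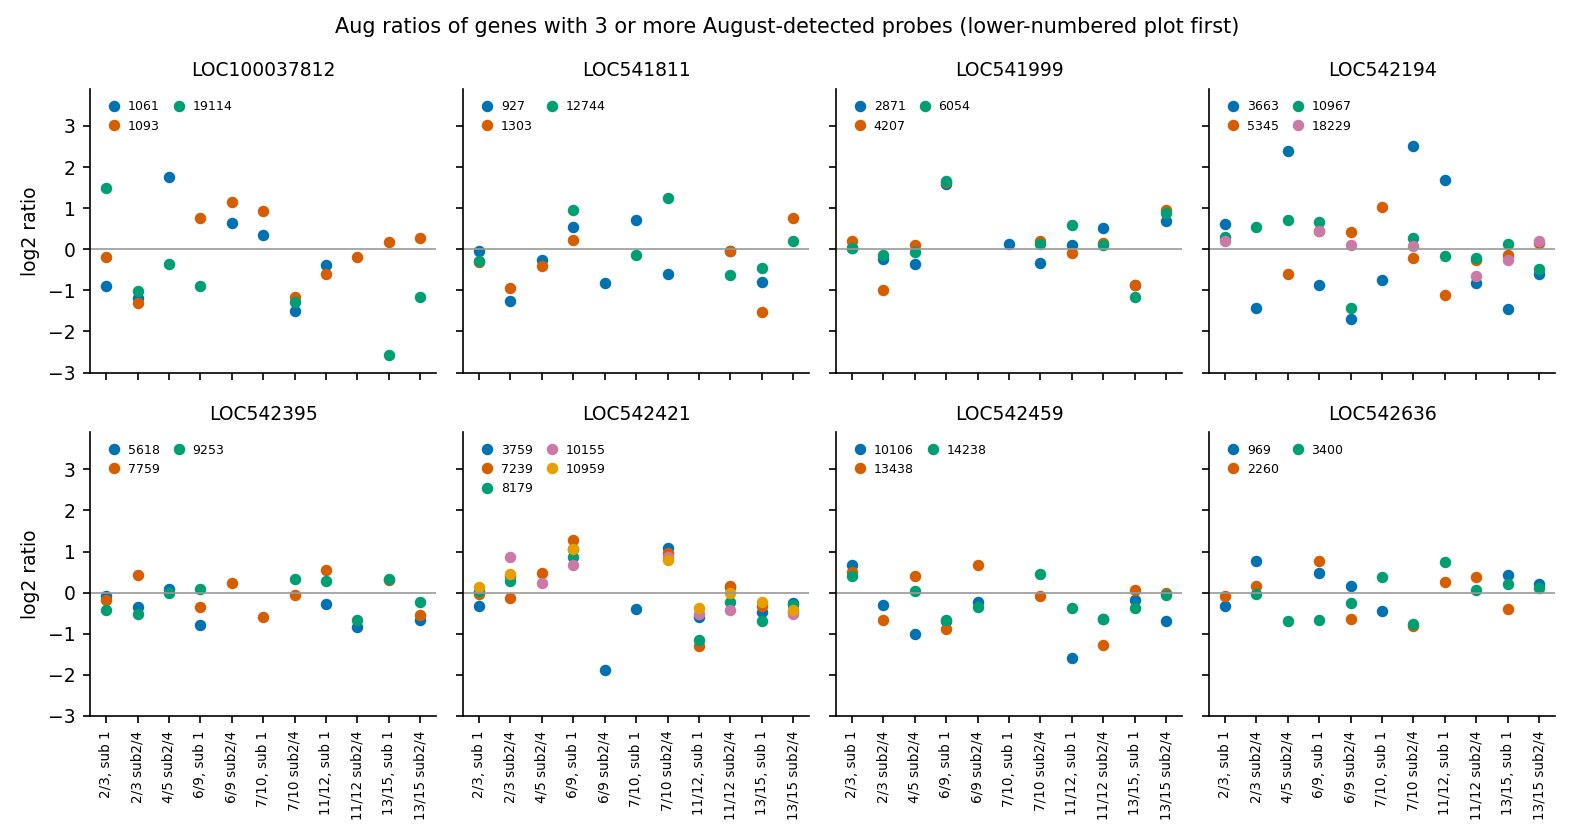
log2 ratio (y axis, lower-numbered plot first) on the 11 Aug arrays (x axis, plots and subplots) for the 8 genes with 3 or more August-detected probes, each probe in its own colour. The probes of LOC541999 and LOC542421 lie close together on most arrays, and probe 3663 of LOC542194 lies apart from the other probes of its gene.

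Subplot 1 was set against subplots 2 and 4 over 16 and 18 arrays. The difference in the share of the 138 probes, subplot 1 minus subplots 2 and 4, was above 0 in 9 of 16 combinations of plots and time and below 0 in 7, from -35.5 to 17.4 percentage points with a median of 2.17. In 14 of the 16 it had the direction of the difference in values of any kind on those arrays. Of the 138 probes, 61 had a value on a larger share of subplot 1 arrays and 75 on a smaller one, where all 16216 probes with a value had 55.6% larger and 43.1% smaller. Among probes with values on 5 to 29 arrays, which kept all 138, the shares over all probes were 49.2% larger and 49.6% smaller. Fisher's exact test called 0 of 16216 probes (0%), and 181 had an unadjusted p under 0.05, 105 of them (0.648%) higher in subplot 1 and 76 (0.469%) lower. Among the 138 that was a single probe, 6008 of LOC542405, with values on 3 subplot 1 arrays and 10 arrays of subplots 2 and 4 (unadjusted p = 0.0386, adjusted p = 1.0, Fisher's exact test).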

How the data were processed

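The deposited values are log10 ratios of 2 channels per array. The base of the logarithm was read off the values themselves: on each array 81.3% to 99.0% of them matched a quotient of whole numbers up to 1000 within 6e-10, and at most 0.0331% did so after a shift of 1e-07. Per the labels' protocols, an RNeasy kit was used for total RNA and a Genisphere kit for labelling. Scanner, background correction, normalization, filters and ratio direction: not given in the sources used here.

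Values were converted to log2 and signed with the lower-numbered plot on top, taking Cy5 over Cy3. Of 36 arrays, 1 was empty and 1 carried the same plant code in both channels, which left 34. Of 19200 probes, 1800 had 1 symbol in the platform's annotation of that time, 23 several and 17377 none. Presence of a value was tested for each probe with two-sided Fisher's exact tests (SciPy 1.17.1), and ratios with limma 3.58.1 in R 4.3.3, with coefficients for plot pairs, over probes with at least 7 Aug values and 2 residual degrees of freedom. P-values were Benjamini-Hochberg adjusted over all probes tested, with calls under 0.05. Fisher's exact test of JulyB against JulyA and the limma test of a single plot pair were tried on simulated data, and the other tests were not.

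Arrays that repeat a plant code were taken as separate, and nothing given here says that arrays of a group came from separate plants in every case, so p-values measure only the spread between these arrays. Genes named are those with several August-detected probes, with values on all Aug arrays, with no June and at least 10 Aug values, or among the 10 furthest by the JulyB minus JulyA count, the F-test p or the mean Aug ratio. Probe 6008 was named after its value was seen. The genes, lists, tests and this rule were chosen with earlier results of these data known. Alternatives were other limits of the choice, other filters, paired tests, left-out plots or arrays, a dye term, median centring and the ratios as deposited.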

Additional observations from a re-analysis of the deposited data

Results flagged for a closer look

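The June array that carried the same plant code of plot 13, subplot 1, in both channels stayed outside every comparison, and it had values for 135 of the 138 August-detected probes (97.8%). It had 13515 values in all (70.4% of the probes and 79.0% of the other locus-numbered probes), more than any of the other 34 arrays, where the 11 June arrays held 2.17% to 44.9% of the 138 probes. The median log2 ratio was -0.37 for the August-detected probes and -0.40 for all probes, with the August-detected probes between -4.82 and 4.86. The part of the array's own making in this count was not tested. It was singled out as a signal in data that no comparison used. A check for a sample far from the others covered 6 groups, all of JulyA or JulyB arrays, and found 0. The June and Aug arrays were not examined in this way.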

How the results depend on the processing

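For 37 results, 404 values were computed under alternatives. Of these, 392 stayed on the same side of the threshold or within 1.5 times or 1 SD, and 12 moved. A reversal of direction was not scored, and counts of 0 calls that stayed at 0 are among the 392. With at least 8 Aug and at most 2 June arrays the choice held 67 probes, and with at least 6 and at most 4 it held 217. Counted by genes, the JulyA mean was 28.8%. The number of August-detected probes with a larger share of JulyA arrays was 10 among probes with values on 3 to 9 July arrays and 10 without plots 2 and 3. Without plots 4 and 5 it was 24 and without plots 6 and 9 it was 22, both within 1.5 times of 16. The paired analysis was an exact McNemar test with plot pair and subplot as the replicate block. In it 0 probes were called, and 3 of 12102 had an unadjusted p under 0.05, none of them August-detected locus-numbered probes. Its smallest possible p, 0.0312, could pass the adjustment only if most probes reached it, so the 0 calls say nothing of the block. Other moved values concerned calls over all probes for single plot pairs, between 0 and 1, and the 8 probes given for JulyB against JulyA without plots 2 and 3. Without the Aug and the June array with the fewest values, the means were 77.2% in Aug and 16.0% in June. Without plots 2 and 3, an alternative chosen after seeing the data, JulyB averaged 55.3% ± 8.21 and JulyA 24.8% ± 5.03 (SD, n = 4 arrays each). The causes of these shifts were not tested. Signal over background was not used here, and depth is read only from the number of values per array.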
